A study of Mus musculus with 8 samples.

Results

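The glypicans are 6 genes, *Gpc1* to *Gpc6*, of the 32285 genes counted in single nuclei RNA sequencing (snRNA-seq) of the mouse ventricular-subventricular zone (V-SVZ), the stem cell niche lining the lateral ventricles. They were picked by symbol, with earlier results of these data known. Glypicans are heparan sulfate proteoglycans tethered to the outer face of the cell membrane by a glycosylphosphatidylinositol (GPI) anchor. Their sulfated sugar chains bind Wnt, Hedgehog, fibroblast growth factor and bone morphogenetic protein ligands, and enzymes that cut the anchor release them from the surface. In the brain, GPC4 and GPC6 are known as proteins secreted by astrocytes that promote the formation of excitatory synapses.

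The study asked what loss of *Tsc2*, a negative regulator of mTORC1 signalling, does to cells of this niche. Nuclei were taken at postnatal day 90, with 1 library per mouse, from 4 mice of the genotype *Tsc2* wt/wt and 4 of the genotype *Tsc2* mut/mut. Both genotypes carried a Cre-dependent tdTomato reporter, and nuclei were sorted for tdTomato, so cells that never recombined were meant to be left out. The mutant allele is conditional and loses *Tsc2* function only where Cre acts. The sources used here do not state which of the Cre systems of the study labelled these particular mice. *Tsc2* itself was read at 13.1 to 17.1 CPM (unique molecular identifiers, UMIs, scaled to a total of 1000000) in wt/wt and 10.1 to 23.6 in mut/mut nuclei, and a 3′ tag outside the deleted exons does not check the deletion.

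A library held 11182335 to 36773832 UMIs over 60000 barcodes. At least 300 genes were seen in 37881 barcodes. Of these, 3470 had under 20% of UMIs from mitochondrial genes and are called nucleus-like, and 34411 had more and are called mitochondria-rich. Median UMIs were 2809 and 954. Levels are CPM, the UMIs of a gene summed over the barcodes of a mouse, with all genes not encoded by mitochondria as the total. The 20000 barcodes of each library with the fewest UMIs are called free RNA. Together they were 160000 barcodes with 19875416 UMIs of genes not encoded by mitochondria. Whether they held only RNA from outside nuclei, or also shallow nuclei and debris, was not tested. Pairs of libraries shared 1 to 15 kept barcodes, at most 0.412% of the smaller library.

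Nuclei were assigned by markers that include no glypican. Astrocytes needed both *Slc1a2* and *Luzp2*, and 971 nuclei passed. Stem cells of the V-SVZ share these markers with astrocytes, so the gate cannot tell them apart. The other gates that passed their check markers held 451 microglia, 383 oligodendrocyte, 282 choroid plexus, 213 ependymal, 71 inhibitory neuron or neuroblast, 63 oligodendrocyte precursor (OPC) and 61 endothelial nuclei. All 7 astrocyte check markers, *Aqp4* and *Gja1* among them, were at least 4-fold higher than in the other gated nuclei. The 20 nuclei of the fibroblast gate had 2 of 4 check markers past that fold, and *Dcn* and *Slc6a13* rested on 2 UMIs each. A gate was named only with UMIs of at least 3 of its check markers. The gates built from mural cell markers (3 nuclei, 1 of 4 check markers detected) and excitatory neuron markers (7 nuclei, 2 of 3 detected, with 1 UMI each) did not reach this, while the fibroblast gate had all 4 detected. A further 510 barcodes passed more than 1 gate and 435 passed none. Of the OPC nuclei, 55 also passed the astrocyte gate.

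*Tsc2* mut/mut replicate 4 stood apart. Only 6 of its 199 nucleus-like barcodes were astrocyte-gated and 96 (48.2%) were choroid plexus-gated. Its *Xist* level was 99.1 CPM against 1172 to 1939 in the other 7 mice. In the choroid plexus gate over all mice, *Xist* differed from the other gated nuclei by -7.64 on the log2 scale (SE 0.41; edgeR, adjusted p = 1.10e-16). *Gpc3* and *Gpc4* are on the X chromosome too, and the part of this difference in their choroid plexus values was not tested. Whether the choroid plexus-gated nuclei of a library came from the same animal as its other nuclei was not tested either. Values over all mice include this mouse where it had at least 10 nuclei, and several of those it enters are also given without it. The *Xist* difference and the *Gpc6* mean in choroid plexus are given only with it. For the choroid plexus fits, leaving out single mice, this one among them, gave these log2 ranges. They were -10.7 to -9.41 for *Gpc5*, -7.72 to -6.11 for *Gpc6* and -1.50 to -0.94 for *Gpc4*.

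On GRCm38, the family occupies 4 chromosomes. *Gpc5* (ENSMUSG00000022112) lies on chr14:115092215-116525179 and *Gpc6* (ENSMUSG00000058571) on chr14:116925315-117976544, both on the plus strand, 400 kb apart. *Gpc4* (chrX:52053021-52165252) and *Gpc3* (chrX:52272426-52613950) are neighbours on the minus strand, 107 kb apart. *Gpc1* is on chr1:92831645-92860779 and *Gpc2* on chr5:138273655-138280005. *Gpc5* and *Gpc6* span 1433 and 1051 kb, against 29.1 kb for *Gpc1* and 6.35 kb for *Gpc2*.

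The sequence upstream of *Gpc5* is shown because this gene carried most glypican UMIs and its level differed most between gates. The 250 bases before its start, chr14:115091965-115092214 on the plus strand, are from RefSeq (GRCm38.p6). Capitals mark the 1 match to TATAAA, searched on both strands.
Gpc5: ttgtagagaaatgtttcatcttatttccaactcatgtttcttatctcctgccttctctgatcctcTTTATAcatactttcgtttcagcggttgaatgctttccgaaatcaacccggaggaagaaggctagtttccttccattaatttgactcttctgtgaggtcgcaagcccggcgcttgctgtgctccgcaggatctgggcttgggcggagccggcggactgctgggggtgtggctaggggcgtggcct
This motif stands in 12.4% of the 32851 upstream sequences of that length. The window has 12 CpG dinucleotides, and 66.5% of the upstream sequences have fewer. The same windows of *Gpc4*, *Gpc3* and *Gpc2* hold 18, 25 and 19 CpG with a GC content of 68.4%, 71.6% and 66.4%, against 51.2% for *Gpc5*. Windows are set by RefSeq starts, while the gene spans above are from GENCODE. The *Gpc4* window (chrX:52164924-52165173) lies inside its span above, and the *Gpc2* window (chr5:138279938-138280187) overlaps its span. The letters TTGGC, the core of a nuclear factor I site, and CAGCTG, an E-box, are not in the *Gpc5* window and stand in 41.5% and 13.0% of all windows. *Gpc1* and *Gpc6* had no entry among the RefSeq sequences used here.

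*Gpc5* made up 63444 of the 71917 glypican UMIs in kept barcodes and *Gpc6* 7377. The others were sparse. *Gpc4* had 499 UMIs, *Gpc1* 429, *Gpc2* 104 and *Gpc3* 64. Per kilobase of gene, the astrocyte-gated level was 9.07 CPM for *Gpc5*, 1.49 for *Gpc2*, 1.21 for *Gpc6*, 0.398 for *Gpc4* and 0.147 for *Gpc1*. The *Gpc2* value rested on 33 UMIs. These levels by length use the whole gene body, since the sources used here do not state whether intronic reads were counted. Whether 3′ tag counts scale with gene length was not tested. Gm20713, annotated on the opposite strand within *Gpc5*, had 757 UMIs in nucleus-like barcodes, and the strand setting of the counting is not given in the sources used here.

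*Gpc5* marked the astrocyte gate. In the 4 *Tsc2* wt/wt mice its level there was 12645, 13639, 12153 and 13900 CPM, and in *Tsc2* mut/mut replicates 1 to 3 it was 13207, 11736 and 12596. The 7 mice thus kept within a narrow band, 12839 ± 784 (SD, n = 7). The 6 astrocyte-gated nuclei of mut/mut replicate 4 gave 9993 from 171 UMIs and were not used in the mean. Against all other gated nuclei of the same mouse, *Gpc5* was higher by 5.06 on the log2 scale (SE 0.36; edgeR's quasi-likelihood test with the mouse as a block, Benjamini-Hochberg adjusted p = 5.24e-08), in 7 of 7 mice. Of all gated *Gpc5* UMIs, 96.0% fell in this gate. That share leaves out the nucleus-like barcodes without a single gate. The 510 mixed ones held 9192 *Gpc5* UMIs (4415 CPM) and the 435 ungated ones 2817 (2692 CPM).

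OPC nuclei came next among the named gates. In the 3 mice with at least 10 of them, *Gpc5* was at 7849 (wt/wt replicate 2), 9273 (wt/wt replicate 4) and 4495 (mut/mut replicate 3), a mean of 7206 ± 2453 (SD, n = 3). Every one of these values lay below all 7 astrocyte values. The gate had too few mice for a fit. Of its 63 nuclei, 55 also passed the astrocyte gate, and the part of astrocyte RNA in their levels was not tested. Per nucleus, the median was 51.3 *Gpc5* UMIs per 10000 UMIs in OPC and 123 in astrocyte-gated nuclei, and the middle 80% of nuclei ran from 21.5 to 118 and from 12.7 to 189.

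In the remaining gates apart from the fibroblast gate, the mean of *Gpc5* was below the mean of free RNA, which was 113 to 1547 CPM in the 8 libraries (502 ± 450, SD). Its mean was 93.5 ± 110 in inhibitory neurons or neuroblasts (n = 3), 67.2 ± 40.5 in oligodendrocytes (n = 7), 58.7 ± 55.7 in microglia (n = 7), 20.9 ± 14.6 in ependymal nuclei (n = 6), 18.4 ± 4.69 in endothelial nuclei (n = 3) and 5.95 ± 7.57 in choroid plexus (n = 7), or 6.61 ± 8.06 there without mut/mut replicate 4 (n = 6). Each mean lay within the larger SD of its neighbour in this order, apart from those of endothelial and choroid plexus nuclei. The fitted differences against the other gated nuclei were -6.69 (SE 0.28) in oligodendrocytes, -7.32 (SE 0.50) in microglia, -8.16 (SE 0.38) in ependymal nuclei and -9.73 (SE 0.35) in choroid plexus on the log2 scale (edgeR, adjusted p = 6.24e-12, 1.20e-09, 1.53e-09 and 1.44e-34). With astrocytes left out of the comparison they were -3.20, -3.79, -4.56 and -5.94. Outside the astrocyte gate, most gated *Gpc5* UMIs came from OPC nuclei (1556) and the 3 nuclei gated on mural cell markers (171). These values therefore mostly set the gates against OPC nuclei.

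With each nucleus thinned to 1000 UMIs, at least 1 *Gpc5* UMI was seen in 93.9% of astrocyte-gated nuclei (95% Wilson interval 92.1 to 95.3%) and 94.8% of OPC nuclei (85.9 to 98.2%). The share was 5.00% in oligodendrocytes, 3.21% in microglia, 1.53% in ependymal nuclei and 0.719% in choroid plexus. Before thinning, the shares were 92.3%, 98.4%, 8.09%, 4.21%, 5.63% and 3.90%, at median depths of 3154, 3222, 1890, 1413, 2389 and 5779 UMIs without mitochondrial genes. The choroid plexus nuclei were the deepest of the 6 gates and had the lowest thinned share. Thinning left out 75 of 971 astrocyte-gated, 5 of 63 OPC, 43 of 383 oligodendrocyte, 108 of 451 microglia, 17 of 213 ependymal and 4 of 282 choroid plexus nuclei. All intervals on shares and on summed UMIs cover counting error only.

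**Figure D1:**
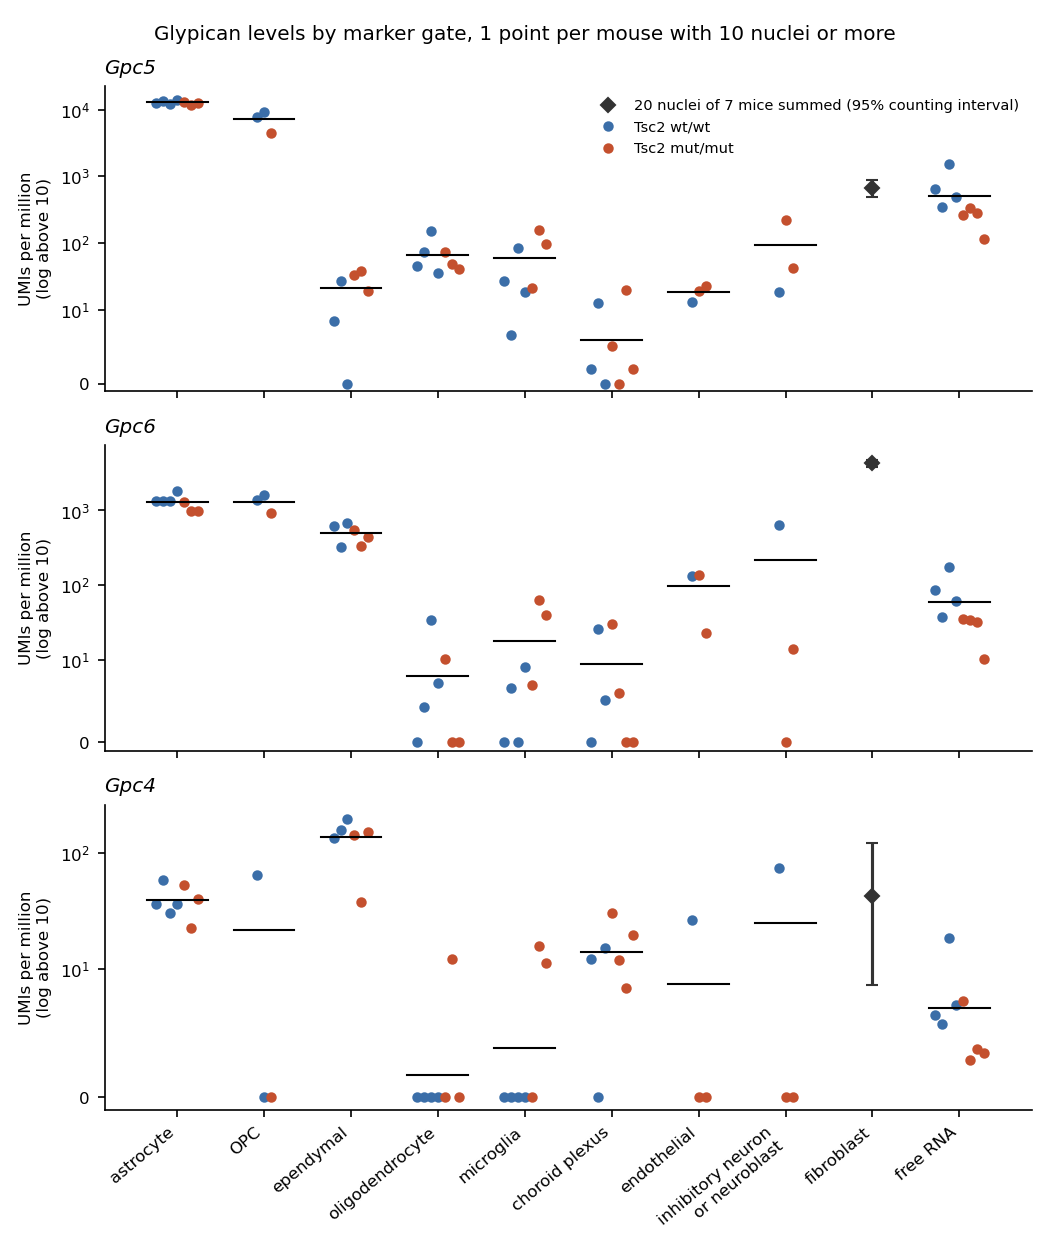
*Gpc5*, *Gpc6* and *Gpc4* in CPM (axis linear to 10, logarithmic above) for each marker gate and for free RNA. Points are mice with at least 10 nuclei, lines are means, and diamonds with 95% Poisson intervals are the 20 fibroblast-gated nuclei of 7 mice summed. *Gpc5* is near 12839 in astrocyte and 7206 in OPC nuclei, *Gpc6* is also high in ependymal and fibroblast-gated nuclei, and *Gpc4* is highest in ependymal nuclei.

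*Gpc6*, the gene beside *Gpc5*, was spread over more gates. In astrocyte-gated nuclei it was at 1357, 1331, 1340 and 1800 CPM in wt/wt and 1287, 986 and 973 in mut/mut replicates 1 to 3, a mean of 1296 ± 277 (SD, n = 7). In OPC nuclei it was at 1376 and 1625 in wt/wt replicates 2 and 4 and 932 in mut/mut replicate 3, so that the OPC and astrocyte ranges overlapped. The astrocyte gate exceeded the other gated nuclei by 2.67 on the log2 scale (SE 0.29; edgeR, adjusted p = 2.33e-06), in 7 of 7 mice. Both *Gpc5* and *Gpc6* fell in the astrocyte gate among the 27.4% of 8008 tested genes that were higher there.

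The highest *Gpc6* level was in the fibroblast gate, with 305 UMIs in 20 nuclei, or 4298 CPM (95% Poisson interval 3829 to 4809). The 7 mice with such nuclei gave 1621 to 8018 from 1 to 5 nuclei each, so no mean over mice is given. At least 1 *Gpc6* UMI was seen in 88.9% of 18 thinned nuclei (Wilson interval 67.2 to 96.9%). *Gpc5* in this gate was 47 UMIs, or 662 CPM (487 to 881), of which 36 came from mut/mut replicate 2, and 75% of the nuclei had none. *Gpc3* had its highest level here as well, 22 UMIs or 310 CPM (194 to 469), in 5 of 7 mice.

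Ependymal nuclei, the ciliated cells facing the ventricle, held *Gpc6* with little *Gpc5*. Their *Gpc6* level was 614, 320 and 685 CPM in wt/wt replicates 1 to 3 and 555, 339 and 440 in mut/mut replicates 1 to 3 (492 ± 150, SD, n = 6). Free RNA stood at 10.3 to 177. Against all other gated nuclei, which include the astrocytes, the difference was -0.46 on the log2 scale (SE 0.23; edgeR, adjusted p = 0.135). Against the other gated nuclei without astrocytes, an alternative chosen after seeing the levels, it was 1.28 (SE 0.39; edgeR, adjusted p = 0.0144). Leaving out wt/wt replicate 1 gave -0.70 (edgeR, adjusted p = 0.0391) against all other gated nuclei.

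The ratio of *Gpc5* to *Gpc6* UMIs set ependymal nuclei apart from astrocyte-gated and OPC nuclei. In mice with at least 10 nuclei it was 7.72 to 12.9 in astrocyte-gated nuclei (10.2 ± 1.76, SD, n = 7). It was 4.82 to 5.70 in OPC nuclei (5.41 ± 0.51, n = 3) and 0 to 0.111 in ependymal nuclei (0.052 ± 0.042, n = 6). Low ratios were not particular to ependymal nuclei. From few UMIs, the ratio was 0 to 0.5 in choroid plexus (n = 4) and 0.1 to 1 in endothelial nuclei (n = 3). It was 1 to 3 in microglia (n = 5) and 4.5 to 17 in oligodendrocytes (n = 4). The fibroblast gate held 47 *Gpc5* and 305 *Gpc6* UMIs. The OPC ratio reached the astrocyte range in mice with 2 to 9 OPC nuclei. There it was 9.08 and 7.36 in wt/wt replicates 1 and 3. In mut/mut replicates 1, 2 and 4 it was 6.37, 8.67 and 10.0, from 30, 6 and 1 *Gpc6* UMIs. In 59.0% of thinned astrocyte-gated and 67.2% of thinned OPC nuclei both genes were seen, against 0.510% of ependymal and 0% of choroid plexus nuclei.

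*Gpc6* was near 0 in the other fitted gates. Its mean was 7.97 ± 12.2 in oligodendrocytes, 17.8 ± 24.0 in microglia and 9.52 ± 12.8 in choroid plexus (SD, n = 7 each), all under the free RNA mean of 59.3 ± 52.6. The fitted differences were -6.96 (SE 0.39), -5.46 (SE 0.46) and -6.63 (SE 0.38) on the log2 scale (edgeR, adjusted p = 1.25e-10, 1.81e-08 and 4.25e-21). The share of all tested genes that were lower was 31.4% of 5616 in oligodendrocytes, 33.7% of 5798 in microglia and 51.4% of 6803 in choroid plexus. In endothelial nuclei *Gpc6* was 132 (wt/wt replicate 2), 136 (mut/mut replicate 1) and 22.4 (mut/mut replicate 3). Of the 38 *Gpc6* UMIs in inhibitory neurons or neuroblasts, 34 came from wt/wt replicate 2.

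*Gpc4* marked ependymal nuclei. It was at 135, 160 and 198 CPM in wt/wt replicates 1 to 3 and 143, 37.6 and 153 in mut/mut replicates 1 to 3 (138 ± 53.8, SD, n = 6), from 3 to 17 UMIs a mouse. Only mut/mut replicate 2, with 3 UMIs, fell within the astrocyte range. The difference to the other gated nuclei was 2.35 on the log2 scale (SE 0.30; edgeR, adjusted p = 1.68e-05), in 6 of 6 mice. Of 5497 genes tested in this gate, 22.4% were higher and 19.0% lower. At least 1 *Gpc4* UMI was seen in 14.8% of thinned ependymal nuclei (10.5 to 20.4%), 2.79% of astrocyte-gated nuclei (1.90 to 4.09%) and none of 340 oligodendrocytes (Wilson interval up to 1.12%).

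Astrocyte-gated nuclei held a lower level of *Gpc4*, 36.5, 58.3, 30.7 and 36.5 CPM in wt/wt and 53.5, 22.6 and 40.2 in mut/mut (39.8 ± 12.4, SD, n = 7). Against the other gated nuclei the difference was 0.59 on the log2 scale (SE 0.24; edgeR, adjusted p = 0.0467), in 6 of 7 mice. In edgeR the call was lost on leaving out wt/wt replicate 2 (0.44, adjusted p = 0.171), wt/wt replicate 4 (0.48, adjusted p = 0.153), mut/mut replicate 1 (0.56, adjusted p = 0.108) or mut/mut replicate 3 (0.40, adjusted p = 0.235), and over all alternatives the adjusted p ran from 0.00683 to 0.235. Choroid plexus nuclei were lower by 1.10 on the log2 scale (SE 0.35; edgeR, adjusted p = 0.00307), beside a median of -0.72 over all genes tested in that gate. Without mut/mut replicate 4 their mean was 13.0 ± 9.91 (n = 6), against 13.9 ± 9.37 with it (n = 7).

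Over the 5 fitted gates, 4 of the 13 pairs of gate and glypican that were tested were called higher, and 17 pairs had too few counts. Of all genes, 27.4% were higher in astrocyte, 21.7% in oligodendrocyte, 25.6% in microglia, 22.4% in ependymal and 33.7% in choroid plexus nuclei. The 4 pairs were *Gpc4*, *Gpc5* and *Gpc6* in astrocytes and *Gpc4* in ependymal nuclei. *Gpc1*, *Gpc2* and *Gpc3* did not pass the filter on low counts in any gate, and *Gpc4* did not in oligodendrocytes and microglia.

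*Gpc2*, which in development is known from growing axons, had 33 of its 55 gated UMIs in astrocyte-gated nuclei and 14 in microglia. Its level was 10.8 ± 5.11 in astrocytes and 22.3 ± 17.7 in microglia (SD, n = 7 each), which overlap. The highest mean, 29.97 ± 22.7 (SD, n = 3), was in inhibitory neurons or neuroblasts, from 13.97 to 55.9 in the 3 mice and 6 UMIs in all. It was seen in 4.76% of thinned inhibitory neurons or neuroblasts (1.63 to 13.1%), 2.62% of thinned microglia (1.39 to 4.91%) and 0.781% of thinned astrocyte-gated nuclei (0.379 to 1.60%). No UMI was read in oligodendrocyte, ependymal or choroid plexus nuclei.

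*Gpc3*, an inhibitor of Hedgehog signalling, had 0 UMIs in 971 astrocyte-gated nuclei, a limit of 0.859 CPM. It had none in oligodendrocytes, microglia, OPC or endothelial nuclei. Outside the fibroblast gate, 9 of its 10 UMIs in inhibitory neurons or neuroblasts came from mut/mut replicate 1. *Gpc1* had 52 UMIs over all gated nuclei and no gate with a level apart from the rest. The highest mean was 24.2 ± 13.9 in inhibitory neurons or neuroblasts (SD, n = 3), from 5 UMIs in all mice, against 14.7 ± 5.46 in free RNA.

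Across the 9 gates with at least 20 nuclei, the genes whose levels followed *Gpc5* most closely among 8747 genes were *Dio2* (Pearson r = 0.957), *Cspg5* (0.938), *Ddhd1* (0.923), *A830019P07Rik* (0.918) and *Bcan* (0.917). *Dio2* encodes the enzyme that activates thyroid hormone, and *Cspg5* and *Bcan* encode chondroitin sulfate proteoglycans. *Gpc6* was followed by *Flrt1* (0.967), *Msi2* (0.942), *Rbms3* (0.940), *Npr2* (0.939) and *Gli3* (0.938), and *Gpc4* by *Plce1* (0.918), *Mindy4* (0.906), *Zfp423* (0.899), *Plod2* (0.892) and *Rfx2* (0.886). *Rfx2* is a regulator of cilia genes and *Gli3* a transcription factor of the Hedgehog pathway. Between members, r was 0.711 for *Gpc5* and *Gpc6*, 0.727 for *Gpc4* and *Gpc6* and 0.216 for *Gpc4* and *Gpc5*. These are descriptions over 9 gates that share the same libraries. Gate markers were left out of the ranking, and a gene entered with at least 50 CPM in 1 gate. This rule favours genes high in a gate where the glypican is high. *Npr2* was highest at 56.4 CPM in fibroblast-gated nuclei, and *Mindy4* at 98.5 CPM in ependymal nuclei. The ranking is therefore no test of a link between these genes and the glypicans.

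The other genes of the heparan sulfate pathway did not follow 1 pattern. Of 31 genes for chain synthesis and editing, 15 were tested in the astrocyte gate, with 3 higher and 3 lower, where 27.4% of all genes were higher and 33.2% lower. Their median difference was 0.14 on the log2 scale, against -0.04 for all genes. The higher ones were *Hs3st3a1* (4.02, SE 0.40) and *Hs2st1* (1.60, SE 0.16), which add sulfate groups, and *Xylt1* (2.05, SE 0.34), which starts the chain. The lower ones were *Sulf2* (-3.61, SE 0.47) and *Sulf1* (-2.90, SE 0.29), which remove sulfate groups outside the cell, and the sulfotransferase gene *Hs6st3* (-2.00, SE 0.31). In edgeR the adjusted p of these 6 lay between 9.81e-07 and 0.000121.

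In ependymal nuclei 8 genes of that list were tested, with 4 higher and 1 lower (22.4% and 19.0% of all genes) and a median of 0.47 against -0.13. *Ndst3* (4.01, SE 0.55), *Hs6st3* (3.35, SE 0.58) and *Ext1* (1.39, SE 0.25) led, and *Xylt1* was lower by 2.43 (SE 0.25) on the log2 scale. In choroid plexus 2 were higher and 7 lower of 11 (33.7% and 51.4% of all genes; median -2.30 against -0.72), with *Sulf1* higher by 3.62 (SE 0.25). In oligodendrocytes 1 was higher and 5 lower of 10 (21.7% and 31.4%; median -0.46 against -0.10), with *Hs3st1* higher by 3.37 (SE 0.34). In microglia 1 was higher and 1 lower of 8 (25.6% and 33.7%; median -0.20 against -0.18).

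Of 9 other heparan sulfate proteoglycans and genes whose products can carry these chains, 5 were tested in the astrocyte gate. There 4 were higher and 1 lower (27.4% and 33.2% of all genes), with a median of 1.20. The syndecans *Sdc4* (1.50, SE 0.24) and *Sdc2* (1.46, SE 0.21) and the co-receptor *Nrp1* (1.20, SE 0.20) were among the higher, and betaglycan, *Tgfbr3*, was lower by 3.00 (SE 0.36). In ependymal nuclei 1 was higher and 1 lower of 5 (22.4% and 19.0% of all genes). These were *Tgfbr3* (2.41, SE 0.28) and *Nrp1* (-5.04, SE 0.57). In oligodendrocytes none was higher and 4 of 5 were lower (21.7% and 31.4% of all genes), and in microglia 1 was higher and 4 lower of 5 (25.6% and 33.7%). In choroid plexus 1 was higher and 1 lower of 4 (33.7% and 51.4%).

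Of 9 genes for glypican release and synaptic partners, 7 were tested in the astrocyte gate. There 4 were higher and 3 lower (27.4% and 33.2% of all genes), with a median of 0.82. *Gdpd2*, which encodes a membrane enzyme of the family that cuts GPI anchors, was higher by 4.52 (SE 0.45; edgeR, adjusted p = 1.17e-06). Its relative *Gdpd5* was higher in oligodendrocytes (2.05, SE 0.32; edgeR, adjusted p = 3.10e-05). The glypican receptor genes *Gpr158* (1.35, SE 0.42) and *Ptprs* (0.94, SE 0.22) were higher in the astrocyte gate, and *Lrrtm4* (-2.89, SE 0.63), *Lrrtm3* (-2.64, SE 0.87) and *Ptprd* (-1.58, SE 0.31) were lower. In oligodendrocytes 3 were higher and 3 lower of 7 (21.7% and 31.4% of all genes). In microglia, ependymal and choroid plexus nuclei none was higher and 4 were lower, of 5, 6 and 5 tested, where 33.7%, 19.0% and 51.4% of all genes were lower.

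The second comparison set nucleus-like against mitochondria-rich barcodes of the same libraries. *Gpc5*, *Gpc6* and *Gpc4* were higher in nucleus-like barcodes, and *Gpc1* was lower. Of the UMIs of each gene, 93.4% of *Gpc5*, 92.1% of *Gpc6* and 77.8% of *Gpc4* were in nucleus-like barcodes, against 19.6% of *Gpc1*. Of all UMIs of genes not encoded by mitochondria, 36.6% were.

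*Gpc5* in nucleus-like barcodes was at 4050, 7079, 6730 and 5936 CPM in wt/wt and 5312, 3862, 5119 and 205 in mut/mut, and in mitochondria-rich barcodes at 182, 227, 187, 199, 218, 213, 226 and 130 in the same order. Only mut/mut replicate 4, with few astrocytes, had nucleus-like barcodes near the mitochondria-rich range. The difference was 3.70 on the log2 scale (SE 0.43; edgeR, adjusted p = 7.08e-06), and 3.89 without that mouse. *Gpc6* gave 3.47 (SE 0.36; edgeR, adjusted p = 2.75e-06) and *Gpc4* 1.90 (SE 0.20; adjusted p = 3.33e-06), each in 8 of 8 mice, and without mut/mut replicate 4 they gave 3.61 and 1.79. Mitochondria-rich levels were 27.9 ± 7.68 for *Gpc6* and 5.81 ± 1.60 for *Gpc4* (SD, n = 8), beside free RNA at 59.3 ± 52.6 and 6.92 ± 4.99.

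*Gpc1*, the glypican known from neurons, ran the other way. It was at 6.46, 4.05, 6.22 and 4.71 CPM in nucleus-like barcodes of wt/wt and 10.6, 13.0, 7.37 and 5.63 in mut/mut, with 4 to 22 UMIs a mouse. In mitochondria-rich barcodes it was at 15.9, 16.7, 20.9 and 16.6 in wt/wt and 14.0, 19.4, 16.6 and 18.2 in mut/mut. The 2 sets of 8 values did not overlap. The difference was -1.84 on the log2 scale (SE 0.22; edgeR, adjusted p = 7.74e-06), and -1.98 without mut/mut replicate 4. The mitochondria-rich mean of 17.3 ± 2.14 lay within the spread of free RNA, 14.7 ± 5.46 (SD, n = 8 each).

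Of 11231 genes tested in this comparison, 39.3% were higher and 38.8% lower in nucleus-like barcodes. *Gpc2* and *Gpc3* did not pass the filter. Their summed UMIs were 82 and 48 in nucleus-like and 22 and 16 in mitochondria-rich barcodes, or 7.03 and 4.12 against 1.09 and 0.791 CPM.

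**Figure D2:**
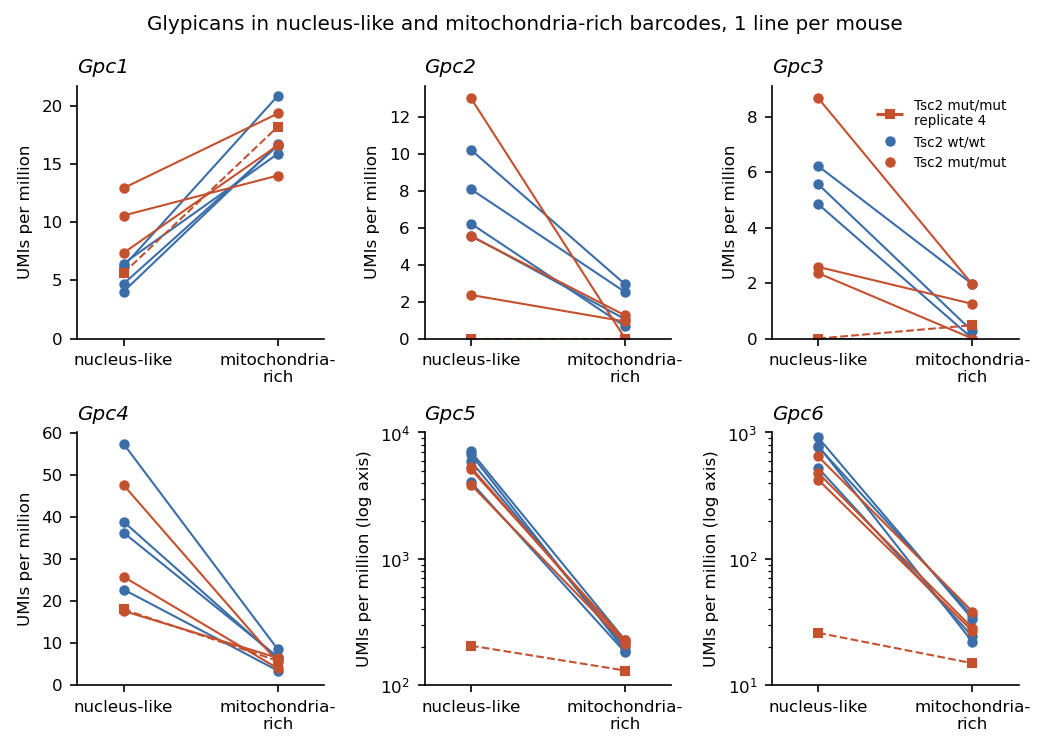
Level of each glypican in CPM in nucleus-like and mitochondria-rich barcodes, with 1 line per mouse and log axes for *Gpc5* and *Gpc6*. Lines fall in all 8 mice for *Gpc4*, *Gpc5* and *Gpc6* and rise in all 8 for *Gpc1*, and the dashed line of *Tsc2* mut/mut replicate 4 starts at 205 for *Gpc5*.

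The barcodes that passed the astrocyte gate showed the same split. In the 8208 mitochondria-rich ones *Gpc5* was 290 ± 92.4 and *Gpc6* 30.9 ± 10.8 (SD, n = 8), both within the range of free RNA. In these barcodes *Gpc1* was 16.3 ± 5.77, against 4.83 ± 4.18 in nucleus-like astrocyte-gated barcodes (n = 7). The 141 mitochondria-rich barcodes that passed the oligodendrocyte gate held 8 *Gpc1* UMIs, and the 5 mice with at least 10 of them had a mean of 71.3 ± 51.1 CPM, from 0 to 134.

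Levels moved in steps with the mitochondrial share. The median over mice of *Gpc5* was 8144 CPM in barcodes with under 5% mitochondrial UMIs, 4497 from 5 to 10%, 1713 from 10 to 20%, 765 from 20 to 30%, 252 from 30 to 40%, 165 from 40 to 50% and 123 from 50%. *Gpc6* went from 809 through 448, 292, 157, 37.0 and 16.6 to 18.3 over the same classes. *Gpc1* went from 2.94 through 7.31 and 11.6 to 18.7 in the class from 20 to 30%, and then stayed between 14.6 and 18.4. *Gpc4* kept between 26.3 and 31.8 up to 30% and was 12.1, 3.41 and 3.48 above. Without mut/mut replicate 4 the first and last medians were 8150 and 126 for *Gpc5* and 882 and 19.7 for *Gpc6*. The limit of 20% thus lay on a slope for *Gpc5* and *Gpc6*, while the median of *Gpc4* dropped past 30%. In the class from 20 to 30%, *Gpc4* ran from 0 to 57.2 CPM over mice, from 0 to 8 UMIs a mouse. *Gpc1* there ran from 0 to 52.9 CPM, from 0 to 5 UMIs a mouse.

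**Figure D3:**
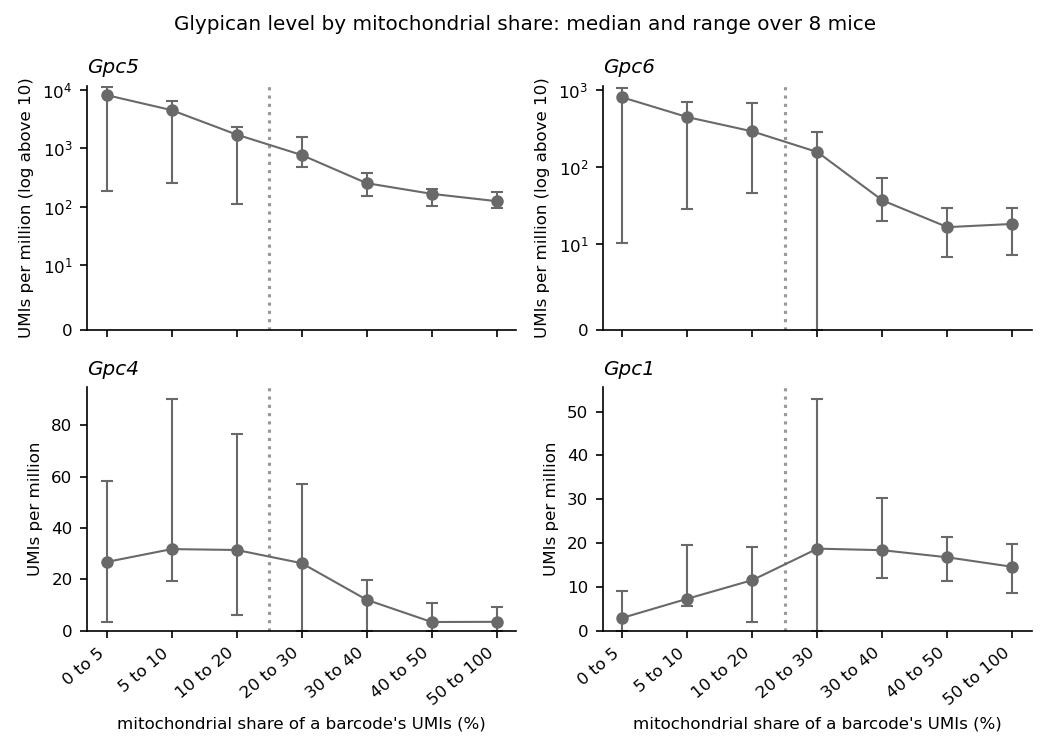
Median (points) and range (bars) over 8 mice of *Gpc5*, *Gpc6*, *Gpc4* and *Gpc1* in CPM by mitochondrial share of a barcode's UMIs, with the 20% limit dotted and axes logarithmic above 10 for *Gpc5* and *Gpc6*. *Gpc5* falls from 8144 to 123, and *Gpc1* rises from 2.94 to 18.7 and then levels off.

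Beside the counts of the 3 lists, 39.3% of all genes were higher in nucleus-like barcodes and 38.8% lower. Of 22 tested synthesis and editing genes, 10 were higher and 7 lower (median 0.43, against -0.01 for all genes). *Sulf1* (2.96, SE 0.32), *Ext1* (2.82, SE 0.34) and *Hs6st3* (2.74, SE 0.39) led the higher and *Extl1* (-2.70, SE 0.29), *B3gat3* (-2.56, SE 0.24) and *Hs3st2* (-2.28, SE 0.46) the lower. Of the other proteoglycans 5 of 7 were higher, led by *Tgfbr3* (2.90, SE 0.21), and *Sdc3* (-2.88, SE 0.18) and *Sdc4* (-2.24, SE 0.18) were lower. Of the release and partner genes 5 of 8 were higher and *Ptprs* was lower (-0.56, SE 0.21).

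The third comparison was between genotypes, with mice as replicates. No glypican differed in edgeR's quasi-likelihood test over all kept barcodes, where 0.0155% of 12916 genes did, nor over nucleus-like (0% of 11048) or mitochondria-rich barcodes (0.276% of 10522). At an unadjusted p under 0.05, 331, 168 and 1458 genes passed in these 3 fits, with no glypican among them, and DESeq2, which called 7, 1 and 41 genes, called no glypican either. No list gene was called.

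Over nucleus-like barcodes *Gpc5* was 5949 ± 1353 in wt/wt and 3624 ± 2369 in mut/mut (SD, n = 4 each), a difference of -0.71 on the log2 scale (SE 0.75; edgeR, adjusted p = 0.923). *Gpc6* was 750 ± 163 and 393 ± 263, a difference of -0.92 (SE 0.66; edgeR, adjusted p = 0.923). Without mut/mut replicate 4 the differences were -0.39 for *Gpc5* and -0.61 for *Gpc6*, and neither passed the test. *Gpc4* gave -0.31 (SE 0.37; edgeR, adjusted p = 0.923). In such sums fewer cells of a type and less RNA per cell cannot be told apart. The share of astrocyte-gated among nucleus-like barcodes was 31.8 ± 6.30% in wt/wt and 21.4 ± 12.4% in mut/mut (exact two-sided permutation test, p = 0.2, where 0.0286 is the smallest p that 4 against 4 allows). In mitochondria-rich barcodes the differences were -0.04 (SE 0.12) for *Gpc5*, -0.13 (SE 0.21) for *Gpc6*, -0.24 (SE 0.33) for *Gpc4* and -0.06 (SE 0.19) for *Gpc1*.

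No gate had 10 nuclei in every mouse, so genotypes within gates were compared in the mice that had them, a choice made after seeing the nuclei per mouse. In the astrocyte gate *Gpc5* was 13084 ± 823 in wt/wt (n = 4) and 12513 ± 739 in mut/mut (n = 3), a difference of -0.11 on the log2 scale (SE 0.10; edgeR, adjusted p = 0.890). *Gpc6* was 1457 ± 229 in wt/wt and 1082 ± 178 in mut/mut. All 3 mut/mut values (973 to 1287) lay below all 4 wt/wt values (1331 to 1800). The share of all genes without overlap between these mice is not given here, so the separation cannot be read as particular to *Gpc6*. The difference of -0.47 (SE 0.16) had an unadjusted p of 0.00795 and an adjusted p of 0.552 in edgeR. Of the 6053 genes in this fit, 489 had an unadjusted p under 0.05 and 0 were called. The exact two-sided permutation test gave p = 0.0571, the smallest that 4 against 3 allows, and 0.531 after adjustment over 26 such tests. Leaving out single mice gave -0.62 to -0.34, with adjusted p from 0.454 to 0.796. The gate's own markers moved the same way, with *Luzp2* at -0.66 (SE 0.15; edgeR, adjusted p = 0.167) and *Slc1a2* at -0.38 (SE 0.13; adjusted p = 0.552), and their part in the *Gpc6* values was not tested.

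*Gpc4* was 40.5 ± 12.2 in wt/wt and 38.8 ± 15.5 in mut/mut astrocyte-gated nuclei, a difference of -0.08 (SE 0.31; edgeR, adjusted p = 0.983). In ependymal nuclei, with 3 mice a genotype, *Gpc4* was 164 ± 32.0 and 111 ± 63.9 and *Gpc6* 540 ± 193 and 444 ± 108, with differences of -0.50 (SE 0.46; edgeR, adjusted p = 0.929) and -0.29 (SE 0.30; adjusted p = 0.946). The share of genes called between genotypes was 0% of 6053 in astrocytes, 0.0509% of 1966 in oligodendrocytes, 0% of 2558 in microglia, 0% of 2142 in ependymal nuclei and 3.56% of 2557 in choroid plexus. No glypican passed the filter in the oligodendrocyte, microglia and choroid plexus fits.

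**Figure D4:**
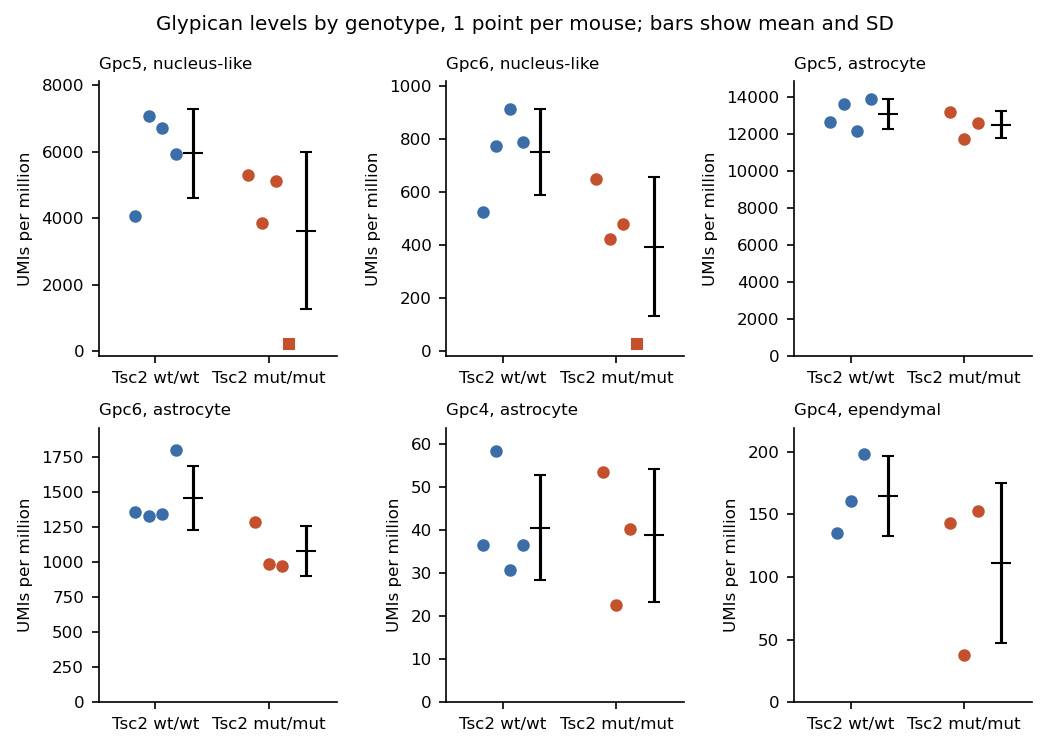
Glypican levels in CPM by genotype over nucleus-like barcodes and within the astrocyte and ependymal gates. Points are mice with at least 10 nuclei, squares are *Tsc2* mut/mut replicate 4, and bars are mean and SD. *Gpc6* in astrocyte-gated nuclei is 1331 to 1800 in wt/wt and 973 to 1287 in mut/mut, while *Gpc5* overlaps between genotypes. Neither gene was called between genotypes.

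The step from mitochondria-rich to nucleus-like barcodes was also set between genotypes. On the log2 scale it averaged 4.66 for *Gpc6* in wt/wt and 3.19 in mut/mut (exact two-sided permutation test of the difference, p = 0.0286, adjusted over 6 genes p = 0.171). For *Gpc5* it averaged 4.87 and 3.48 (exact permutation p = 0.0857, adjusted p = 0.171) and for *Gpc1* -1.55 and -0.88 (exact permutation p = 0.0571, adjusted p = 0.171). Mut/mut replicate 4 had steps of 0.76 for *Gpc6* and 0.65 for *Gpc5*. Without it, an alternative chosen after seeing the data, the mut/mut means were 4.00 for *Gpc6* (exact permutation p = 0.0571, adjusted p = 0.171), 4.42 for *Gpc5* (exact permutation p = 0.171, adjusted p = 0.343) and -0.67 for *Gpc1* (exact permutation p = 0.0571, adjusted p = 0.171).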

How the data were processed

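Count matrices of UMIs per gene and barcode were used as deposited. Per the labels and methods, the authors aligned 10x 3′ libraries of sorted V-SVZ nuclei to GRCm38 with Cell Ranger 7.0.1, forced to 60000 barcodes per library, and worked in Seurat 4. Whether introns were counted and the strand setting are not given in the sources used here. The sorting gate was set to leave out doublets, and no doublet caller was run here.

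Barcodes with at least 300 genes were kept and split at 20% of UMIs from 13 mitochondrial genes, which were left out of totals and tests. A gate needed 2 of its markers with a UMI. Barcodes in more than 1 gate were set aside, except that those in the astrocyte and OPC gates counted as OPC. Counts were summed per mouse and set, with at least 10 nuclei, and a gate needed 4 mice to be fitted. The main test was edgeR 4.0.16 (R 4.3.3; TMM, quasi-likelihood) over all genes passing its filter on low counts, with Benjamini-Hochberg adjustment and a threshold of 0.05. The mouse was a block for gates and barcode kinds, since both sides came from the same library. Genotypes were compared without a block. DESeq2 1.42.0 was an alternative. For single values, genotypes were set against each other by permuting mice in every possible way, an exact two-sided test (Python 3.11.15, numpy 2.4.6, scipy 1.17.1). The scripts were checked on simulated data.

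Libraries held 11182335 to 36773832 UMIs, and a gate with few UMIs of a gene has a wide counting interval. Labels separate the mice by library, so replicates were taken as separate animals. Fits within gates by genotype had been planned for gates with 10 nuclei in every mouse. No gate met this, and mice with at least 10 nuclei were used instead. Alternatives covered the barcode filters, the gate rule, the scaling, the low-count filter, the block and each mouse left out. All 6 glypicans are named. Of 3 lists, up to 3 genes per direction with the largest called change are named, and for members with at least 200 gated UMIs the 5 genes of highest correlation across gates (log2 of CPM + 1, at least 50 CPM in 1 gate, gate markers left out). The members, gates and lists were chosen with earlier results of these data known.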

Additional observations from a re-analysis of the deposited data

Results flagged for a closer look

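In 4 of 38 groups of 4 mice or more that were examined, 1 mouse was far from the others relative to the range of its group, where chance alone marks about 1 group in 20. The mitochondria-rich level of *Gpc1* was 20.9 CPM in *Tsc2* wt/wt replicate 3, against 15.9 to 16.7 in the other wt/wt mice. The mitochondria-rich level of *Gpc5* was 130 CPM in *Tsc2* mut/mut replicate 4, against 213 to 226 in the other mut/mut mice. This is the mouse with 6 astrocyte-gated nuclei. *Gpc4* over all kept barcodes was 24.3 CPM in *Tsc2* mut/mut replicate 1, against 9.43 to 11.8. *Gpc6* in astrocyte-gated nuclei was 1800 CPM in *Tsc2* wt/wt replicate 4, against 1331 to 1357 in the other wt/wt mice. The genotype difference of *Gpc6* in this gate was not called with or without that mouse.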

How the results depend on the processing

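The number of pairs of gate and glypican called higher was 4, and 3 or 4 under each alternative, with *Gpc4* counted in both astrocyte and ependymal nuclei. With no low-count filter the 4 included *Gpc2* in microglia (1.28; edgeR, adjusted p = 0.0487) in place of *Gpc4* in astrocytes. With astrocytes left out of the comparison they included *Gpc6* in ependymal nuclei, and *Gpc4* there did not pass the filter. The astrocyte pairs in that count were those of the main fit, since this alternative does not exist for the astrocyte gate. The number of glypicans that differed between barcode kinds was 4, or 6 with no filter on low counts. Of all genes, 8771 of 11231 differed in the main fit and 12192 of 23826 with no filter. None differed between genotypes under any alternative. Of single values, 64 of 64 for barcode kinds, 222 of 238 for gates and 235 of 248 for genotypes kept their direction and their side of the threshold. Part of the genotype count was fixed in advance. Leaving out all barcodes of more than 1 gate changes only the OPC gate, so those genotype fits equal the main ones. *Gpc4* in the astrocyte gate (0.59) was not called with DESeq2 (0.52, adjusted p = 0.134) or RLE size factors (edgeR, 0.53, adjusted p = 0.0713). Nor was it called against the other gated and the ungated nucleus-like barcodes, without mixed ones (edgeR, 0.52, adjusted p = 0.0665). The same held with all barcodes of more than 1 gate left out (edgeR, 0.48, adjusted p = 0.110). It also held with no low-count filter (edgeR, 0.59, adjusted p = 0.0721) or a limit of 10% mitochondrial UMIs (edgeR, 0.60, adjusted p = 0.0834). *Gpc6* in ependymal nuclei was called lower with DESeq2 (-0.58, adjusted p = 0.0262), RLE (edgeR, -0.58, 0.0490) and no filter (edgeR, -0.82, 0.00474). It turned to 1.28 with astrocytes left out of the comparison, an alternative chosen after seeing the data. By construction that alternative removes the gate with 82.1% of gated *Gpc6* UMIs, while fibroblast-gated and OPC nuclei stay in. RLE moved the median of all genes from -0.10 to -0.30 in oligodendrocytes, -0.18 to -0.54 in microglia, -0.13 to -0.26 in ependymal and -0.72 to -1.04 in choroid plexus nuclei. Uncalled genotype differences that changed sign were, with 500 genes per barcode, mitochondria-rich *Gpc1* (0.081), *Gpc5* (0.32) and *Gpc6* (0.16), with a limit of 10%, mitochondria-rich *Gpc5* (0.23), and with a limit of 30%, astrocyte *Gpc4* (0.0064). The cause was not tested. Leaving out single mice, they ran from -0.13 to 0.039 for mitochondria-rich *Gpc1*, -0.094 to 0.079 for *Gpc5*, -0.30 to 0.018 for *Gpc6* and -0.34 to 0.21 for astrocyte *Gpc4*.

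The labels do not say whether replicate numbers pair mice across genotypes, and 4 mice a genotype are too few to decide it from expression. Same-numbered mice deviated from their group means with correlations of -0.125, 0.0769, -0.0620 and 0.0017, and 0 of 8 mice correlated best with their own number. With the replicate number as a block, 0 glypicans differed between genotypes, as without it. Without the mouse as a block, 3 pairs of gate and glypican were called higher, since *Gpc4* was lost in astrocytes (0.59; edgeR, adjusted p = 0.0574) though not in ependymal nuclei, and 4 glypicans differed between barcode kinds. In that fit of barcode kinds, 8680 of 11231 genes differed. Depth limits *Gpc1*, *Gpc2* and *Gpc3*, with 52, 55 and 36 UMIs over all gated nuclei.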

Other observations

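Barcodes outside the named gates also held glypican UMIs. The 3 nuclei gated on mural cell markers had 100% with a *Gpc5* UMI and 33.3% with a *Gpc6* UMI. Their summed *Gpc5* level was 16447 CPM (95% Poisson interval 14074 to 19105), above the 12995 of all astrocyte-gated nuclei summed. Of these *Gpc5* UMIs, 137 came from wt/wt replicate 2 and 34 from mut/mut replicate 3. With 1 of 4 check markers detected, the type of these nuclei is not known. The 17 mitochondria-rich barcodes that passed the OPC gate held 31 *Gpc5* UMIs, 2055 CPM (95% Poisson interval 1396 to 2916), against 205.7 CPM over all mitochondria-rich barcodes, and 26 of the 31 came from *Tsc2* mut/mut replicate 3. The 5 mitochondria-rich fibroblast-gated barcodes held 5 *Gpc6* UMIs and no *Gpc5* UMI. After thinning, 13.0% of the 2236 mitochondria-rich barcodes deep enough had a *Gpc5* UMI, and 32175 were too shallow.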
